A study of Homo sapiens with 3 samples.

Results

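The genes described here are 47 genes of the endoplasmic reticulum (ER) protein folding machinery and of the unfolded protein response, chosen by gene symbol as ER chaperones, disulfide isomerases, stress sensors, degradation genes and translocon genes. All 47 were found among the 58381 genes of the count table, and all 47 had a mean of at least 10 counts over the libraries, as had 18761 genes in all. RNA came from T24, a human bladder carcinoma cell line, in 3 conditions with 1 library each, the last of them called the library with the shRNA where that is clear. Ctrl cells were untreated and are labelled "Empty", RT cells were control cells exposed to ionizing radiation, and RT + shHDAC6 cells were irradiated and carried a lentiviral shRNA against HDAC6, a cytoplasmic deacetylase. The protocol text puts a control pLKO.1 vector and puromycin selection behind the control cells, and gives a dose of 10 Gy from a caesium source in all 3 sample records. The study's results section, however, calls the irradiated comparison cells parental, so whether they carried the vector is uncertain. If they did not, transduction and selection cannot be told apart from the shRNA. The time between irradiation and harvest was not given for these libraries in the sources used here, and the transduced cells are described as a selected population with no mention of a clone. Since each condition is 1 library, the differences below have no replicate check and carry no p-values.

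Proteins that enter the secretory pathway are threaded into the ER through the SEC61 translocon and are folded there by chaperones of the HSP70 and HSP90 families, by the lectin chaperones that read N-glycans, and by oxidoreductases that form disulfide bonds. Proteins that do not fold are returned to the cytosol and degraded, a route called ER-associated degradation. When unfolded protein builds up, the sensors ATF6, IRE1 (encoded by ERN1) and PERK (encoded by EIF2AK3) signal to the nucleus, and ATF6 and the spliced form of XBP1 raise the transcription of chaperone and degradation genes. XBP1 splicing and the cleavage of ATF6 take place after transcription and cannot be read from counts per gene.

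Several of these genes carry short promoter elements through which ATF6 and XBP1 act, and the matches are shown because the values of the genes that hold them are set beside the others further on. The letters of the ER stress response element, CCAAT and CCACG with 9 free bases between them (ERSE), were searched on both strands of RefSeq promoters (GRCh38.p14, 250 bases before to 50 after a start). A match was present for 8 of the 44 genes of the list that had a promoter sequence, and for 25 (0.0916%) of the 27305 genes in the promoter table. Below, capitals mark the fixed letters, lower case the free ones, and each match is read 5′ to 3′ on the strand named.
HSPA5, chr9:125241391-125241409, minus strand: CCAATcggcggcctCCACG
HSP90B1, chr12:103930216-103930234, plus strand: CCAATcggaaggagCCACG
HSP90B1, chr12:103930321-103930339, minus strand: CCAATcgcgccgcaCCACG
CALR, chr19:12938384-12938402, minus strand: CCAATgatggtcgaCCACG
CANX, chr5:179698778-179698796, plus strand: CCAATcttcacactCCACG
CRELD2, chr22:49918554-49918572, minus strand: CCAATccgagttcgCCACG
PDIA6, chr2:10812853-10812871, minus strand: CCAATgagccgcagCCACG
ERO1B, chr1:236282183-236282201, plus strand: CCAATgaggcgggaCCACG
XBP1, chr22:28800603-28800621, minus strand: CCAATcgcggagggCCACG
In HSPA5 the match ran from position -66 to -48 relative to the start, and in XBP1 from -52 to -34. The shorter element ERSE-II, ATTGG and CCACG with 1 free base between them, was matched in 3 genes of the list and in 19 (0.0696%) of all genes with a promoter, and it is shown for the genes of the list that hold it.
HYOU1, chr11:119057274-119057284, plus strand: ATTGGaCCACG
HYOU1, chr11:119057380-119057390, plus strand: ATTGGaCCACG
HERPUD1, chr16:56932025-56932035, plus strand: ATTGGgCCACG
SDF2L1, chr22:21642114-21642124, minus strand: ATTGGtCCACG
The unfolded protein response element TGACGTGG (UPRE) was matched in DNAJC10, HYOU1, SSR3, TXNDC11 and TXNDC5, 5 of 44 genes, against 253 (0.927%) of all genes, and in HYOU1 it overlapped an ERSE-II match. A match of letters is a description and not a binding site. No promoter sequence was at hand for DERL1, PDIA3 and FKBP14.

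Sequencing depth was 41811165 assigned counts for Ctrl, 35959265 for RT and 35424086 with the shRNA, and mitochondrially encoded RNA took 3.75%, 6.09% and 5.51% of them. Levels are given as CPM, counts per 1000000 after TMM scaling (trimmed mean of M-values). The log2 ratios carry 95% Clopper-Pearson intervals, which are computed from the counts of 1 library per condition and so cover counting error only. Duplicates of 1 molecule cannot be recognised in reads that carry no molecular identifiers, so the intervals may be too narrow even for that error. A gene was called higher or lower when it differed at least 1.5-fold (0.58 on the log2 scale) and its interval excluded a ratio of 1. TMM scaling placed all log2 ratios of RT against Ctrl 0.22 above those from library totals, so that directions near 0 depend on it. HDAC6 (ENSG00000094631, chromosome X, 48801377 to 48824982 in GRCh38) had 3098 counts in Ctrl, 2383 in RT and 2170 with the shRNA. After scaling, the library with the shRNA differed from RT by -0.20 on the log2 scale (interval from -0.28 to -0.11), short of the 1.5-fold rule. In separate measurements, the study reports reduced HDAC6 mRNA by qPCR and reduced HDAC6 protein by Western blot in its T24 cells with the shRNA. Of 15 urothelial and epithelial markers, 10 reached a mean of 10 counts, and KRT18 led them with 7336, 8362 and 9048 counts, while the uroplakins UPK1B, UPK2 and UPK3A and the keratin KRT20 had at most 3 counts in any library and UPK1A had 18, 2 and 2. The summed level of 7 leukocyte and endothelial markers was between 17.2 and 26.4 CPM. The endothelial markers PECAM1, with 489, 209 and 323 counts, and VWF, with 417, 209 and 271, led them, and PTPRC had 57 to 120 counts. In RT against Ctrl, 1 of the 10 epithelial markers was called higher and 2 lower, and of the 5 leukocyte and endothelial markers that were well enough counted, 0 and 2. Of all genes tested, 13.0% were called higher and 12.7% lower.

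Together the 47 genes took 614279 counts in Ctrl, 674693 in RT and 562397 with the shRNA, which were 1.47%, 1.88% and 1.59% of the libraries. The level summed over the genes was 13545 CPM in Ctrl, 20116 in RT and 16061 with the shRNA, so that it was highest in RT and lowest in Ctrl. In these bulk libraries, fewer cells with a transcript and less of it per cell cannot be told apart. Per kilobase of the canonical transcript, CALR, the calcium-binding lectin chaperone, had the highest level in all 3 libraries, at 814 in Ctrl, 1108 in RT and 882 with the shRNA. PPIB, a prolyl isomerase of the ER, was second in RT at 616, and was followed by CANX at 577, P4HB at 487 and HSP90B1 at 478. TXNDC5 was the lowest in each library, at 0.796, 2.46 and 1.565, but 60.9% of its exon bases overlap a second gene on its strand, so that its reads may have been split or dropped. Apart from TXNDC5, ERN1 was the lowest at 2.48, 3.10 and 3.73, which made the IRE1 transcript scarcer per length than those of the other sensors.

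**Figure D1:**
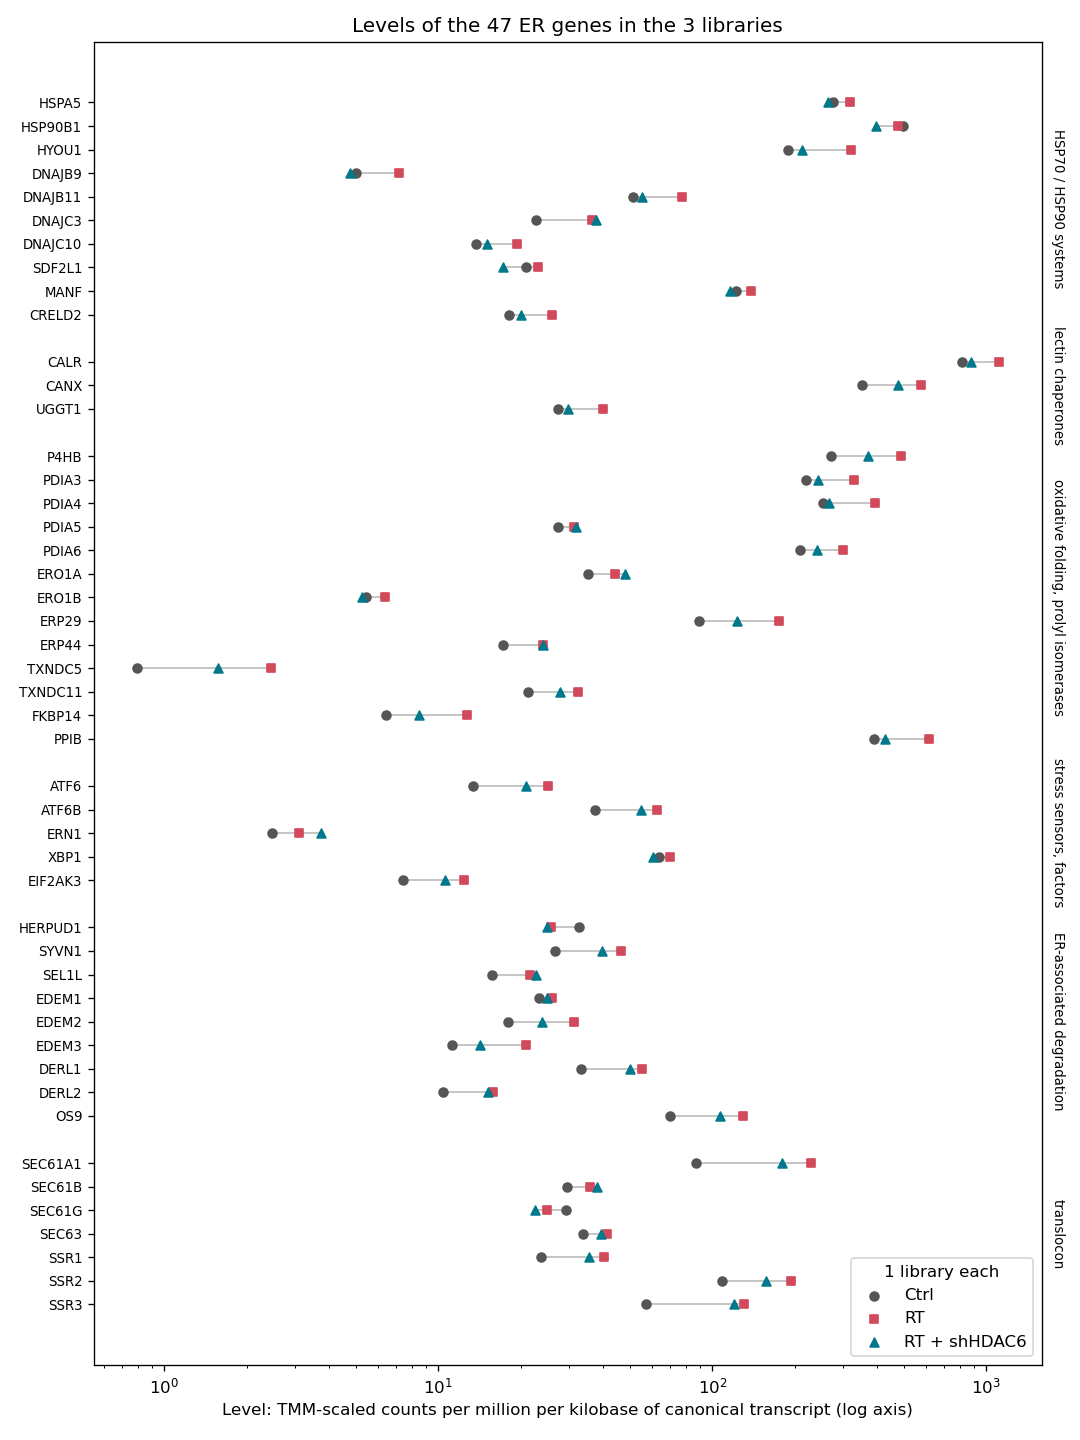
Level of each of the 47 ER genes in the 3 libraries, in TMM-scaled CPM per kilobase of canonical transcript on a log axis, grouped by role; each symbol is 1 library (circle Ctrl, square RT, triangle RT + shHDAC6) and a grey line joins the lowest and the highest. The RT symbol is the highest of the 3 for 38 of the 47 genes, and the Ctrl symbol is the lowest for 38.

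The first comparison asked how irradiation of control cells changed these transcripts. In RT against Ctrl, 24 of the 47 genes were called higher and 0 lower, against a background of 13.0% of all 18761 genes called higher and 12.7% called lower. Since the ER genes are well counted, the 7020 genes with a mean of at least 1000 counts are a closer background: 18.8% of them were called higher and 4.23% lower, while higher calls were made for 23 of the 41 ER genes with such a mean. The median log2 ratio over the 47 genes was 0.59, compared with -0.028 over all genes and 0.12 over the 7020 well-counted genes, and the log2 ratio lay above 0 for 44 of the 47. With library totals only, 12 ER genes were called higher and 0 lower, against 6.99% and 22.8% of all genes, and the median was 0.37. A change of scaling moved all log2 ratios by less than a call requires, so no called gene could change direction. HSPA5, SDF2L1, MANF, PDIA5, XBP1 and EDEM1, none of them called, went below 0 with library totals. HSP90B1, also not called, went above 0 with median-of-ratios scaling. The share of mitochondrially encoded RNA was also higher in RT than in Ctrl, and its part in these values was not tested beyond the change of scaling.

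After TXNDC5, a thinly counted gene described below, the largest rises were those of the translocon genes SEC61A1 and SSR3. SEC61A1 (ENSG00000058262, chromosome 3, 128051641 to 128071705), the pore-forming subunit of the SEC61 channel, had a level of 310.7 CPM in Ctrl, 816 in RT and 643 with the shRNA. It rose 2.63-fold in RT, a log2 ratio of 1.39 (interval from 1.36 to 1.42), and was called higher than Ctrl in both irradiated libraries. The small subunits of the same channel were not called: SEC61B had 756, 678 and 750 counts with a log2 ratio of 0.28 (interval from 0.13 to 0.43), and SEC61G had 562, 355 and 336 counts with one of -0.23 (interval from -0.42 to -0.033). The 3 subunits of 1 channel thus lay on either side of 0 in RT against Ctrl, and the 3 log2 ratios kept these signs under each scaling. With library totals, however, that of SEC61B was 0.06, and with median-of-ratios scaling that of SEC61G was -0.17. In both of these cases the counting interval covered 0. SSR1, SSR2 and SSR3 encode subunits of the translocon-associated complex that sits beside the channel, and all 3 rose. SSR3 went from 242 in Ctrl to 554 CPM in RT, a log2 ratio of 1.20 (interval from 1.16 to 1.23), and was at 508 with the shRNA. SSR2 was at 121, 215 and 173 CPM and SSR1 at 228, 389 and 344, with log2 ratios of 0.83 (interval from 0.78 to 0.89) and 0.77 (interval from 0.73 to 0.81). SEC63, a membrane J protein that recruits HSPA5 to the channel, was at 217, 265 and 252 CPM and was not called in RT (log2 ratio 0.29).

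Of the 10 genes of the HSP70 and HSP90 systems, 9 had a log2 ratio above 0 in RT, 8 of them with the whole counting interval above 0. By the 1.5-fold rule 3 were called higher: HYOU1, DNAJC3 and DNAJB11. Of all genes 13.0% were called higher there, and of the well-counted genes 18.8%. HYOU1 (chromosome 11, 119044188 to 119057227), a large HSP70-like chaperone and nucleotide exchange factor, had 39267 counts in Ctrl, 49613 in RT and 34282 with the shRNA. Its level rose from 866 to 1479 CPM in RT, a log2 ratio of 0.77 (interval from 0.75 to 0.79), and was 979 in RT + shHDAC6. The RT library was high for HYOU1 and the other 2 libraries lay near each other. DNAJC3, a J-domain cochaperone that also restrains PERK, went from 127 to 203 CPM (log2 ratio 0.68, interval from 0.63 to 0.73), and DNAJB11, a lumenal J protein of HSPA5, went from 84.4 to 127 (log2 ratio 0.59, interval from 0.53 to 0.65), close to the fold that the call requires, and with the shRNA they were at 210.0 and 90.9. The chaperones that define the 2 families differed less between the libraries. HSPA5 (BiP; chromosome 9, 125234853 to 125241382) was at 1084 CPM in Ctrl, 1243 in RT and 1032 with the shRNA, with a log2 ratio of 0.20 (interval from 0.18 to 0.22) in RT against Ctrl. HSP90B1 (GRP94; chromosome 12, 103930107 to 103953931) was at 1383, 1329 and 1100, with a log2 ratio of -0.057 (interval from -0.074 to -0.039). Neither was called, and the order of the RT and Ctrl libraries for both genes depended on the scaling. DNAJB9, DNAJC10 and CRELD2 had log2 ratios between 0.49 and 0.52, and SDF2L1 and MANF of 0.15 and 0.19, all short of the rule.

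Among the lectin chaperones, CANX, the membrane-bound calnexin, rose from 1729 to 2836 CPM in RT (log2 ratio 0.71, interval from 0.70 to 0.73) and was at 2336 with the shRNA. CALR was at 1547 in Ctrl, 2107 in RT and 1677 with the shRNA, with a log2 ratio of 0.45 (interval from 0.43 to 0.46) that did not reach the rule. UGGT1, the glucosyltransferase that sends misfolded glycoproteins back to these lectins, had a log2 ratio of 0.55 and was likewise not called. All 3 genes were highest in RT.

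All 13 genes of oxidative folding and proline isomerisation had their whole counting interval above 0 in RT. Of them 7 were called higher, against 13.0% of all genes and 18.8% of the well-counted genes, and the other 6 had log2 ratios from 0.19 to 0.58. P4HB, the founding protein disulfide isomerase, went from 661 to 1188 CPM (log2 ratio 0.85, interval from 0.82 to 0.87) and was at 898 with the shRNA. ERP29, a thioredoxin-fold chaperone, went from 145 to 284 (log2 ratio 0.97, interval from 0.93 to 1.02), and FKBP14, a prolyl isomerase, from 32.1 to 63.4 (log2 ratio 0.98, interval from 0.88 to 1.08), and with the shRNA they were at 199.8 and 42.2. The rises of PDIA4, PPIB and TXNDC11 were smaller. PDIA4, a disulfide isomerase, was at 703 CPM in Ctrl, 1086 in RT and 737 with the shRNA (log2 ratio 0.63), PPIB at 348, 550.3 and 381 (log2 ratio 0.66), and TXNDC11, a membrane thioredoxin, at 66.1, 100.7 and 86.7 (log2 ratio 0.61). TXNDC5, a disulfide isomerase with several thioredoxin domains, had the largest log2 ratio of the list, 1.63 (interval from 1.29 to 1.97), on 106 counts in Ctrl and 242 in RT, with the shared exons named above. The oxidases that recharge the isomerases, ERO1A and ERO1B, had log2 ratios of 0.33 and 0.22 and were not called, nor was ERP44, which retains ERO1 in the early secretory pathway, at 82.9, 116 and 116 CPM (log2 ratio 0.48). PDIA3, the isomerase that works with the lectin chaperones, lay just under the rule at 1.49-fold. Strand use in the counting was not stated, and 26.6% of the exon bases of PPIB, 25.2% of those of PDIA6 and 20.8% of those of SSR3 overlap a gene on the other strand, so that their counts are less certain.

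Of the 5 genes of the sensors and their factors, 3 were called higher in RT, against 13.0% of all genes and 18.8% of the well-counted genes. All 5 had their whole counting interval above 0. ATF6 (chromosome 1, 161766298 to 161977574) was counted 4537 times in Ctrl, 6281 times in RT and 5445 times with the shRNA. It rose 1.87-fold in RT, a log2 ratio of 0.90 (interval from 0.85 to 0.96). Its relative ATF6B rose from 98.0 to 165 CPM (log2 ratio 0.76, interval from 0.70 to 0.81), and EIF2AK3 from 33.8 to 56.2 (log2 ratio 0.73, interval from 0.63 to 0.83), and with the shRNA they were at 144 and 48.1. ERN1 was not called, with 887 counts in Ctrl, 821 in RT and 1030 with the shRNA and a log2 ratio of 0.32 (interval from 0.18 to 0.46). XBP1, whose transcript is the substrate of IRE1, was at 114.4, 125.5 and 108.5 CPM and had a log2 ratio of 0.13 (interval from 0.075 to 0.19) in RT, which turned negative with library totals. All 4 sensor genes had their lowest level in Ctrl. In RT, ATF6, ATF6B and EIF2AK3 were called higher than in Ctrl. With the shRNA ATF6 and ERN1 were, against 11.8% of all genes and 14.1% of the well-counted genes, and both of these calls were lost with library totals. The log2 ratios of XBP1 lay between -0.21 and 0.13 in all 3 comparisons.

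In ER-associated degradation, 6 of 9 genes were called higher in RT, against 13.0% of all genes and 18.8% of the well-counted genes. For 8 of the 9 the whole counting interval lay above 0. OS9, a lectin that hands glycoproteins to the ubiquitin ligase, went from 187 to 347 CPM (log2 ratio 0.89, interval from 0.85 to 0.93), and SYVN1, the ligase HRD1, from 80.7 to 141 (log2 ratio 0.80, interval from 0.74 to 0.87), and with the shRNA they were at 285 and 119.9. EDEM2 and EDEM3, mannosidases that mark glycoproteins for removal, had 1534 and 3489 counts in Ctrl, 1983 and 4775 in RT, and 1581 and 3405 with the shRNA. Their log2 ratios in RT against Ctrl were 0.81 and 0.89, while their relative EDEM1 had 0.16 (interval from 0.11 to 0.21) and was not called. DERL1 and DERL2, membrane proteins of the export channel, had 4852 and 1961 counts in Ctrl, 5976 and 2213 in RT, and 5650 and 2218 with the shRNA. Their log2 ratios were 0.74 and 0.61, and that of SEL1L, the partner of SYVN1, was 0.46, short of the rule. HERPUD1, a membrane scaffold of the ligase complex and a classical target of the response, had the lowest log2 ratio of the 47. It had 4211 counts in Ctrl, 2470 in RT and 2496 with the shRNA, and its log2 ratio of -0.33 (interval from -0.41 to -0.26) for RT against Ctrl stayed below 0 under each scaling without reaching the 1.5-fold rule.

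The genes with an ERSE match in their promoter were set beside the other members as a description, and the latter also hold known targets of the response such as HERPUD1, DNAJB9 and HYOU1. In RT against Ctrl the 8 genes with a match had log2 ratios from -0.057 to 0.71 with a median of 0.33. Of them 1, CANX, was called higher, which is close to the share of 13.0% among all genes. The 36 genes with a promoter and no match had log2 ratios from -0.33 to 1.63 with a median of 0.62, and 21 of them were called higher. Among the well-counted genes the share called higher was 18.8%. In RT + shHDAC6 against RT the medians were -0.28 and -0.24. The genes that hold ERSE-II, HYOU1, HERPUD1 and SDF2L1, had log2 ratios of 0.77, -0.33 and 0.15 in RT against Ctrl, so that they showed no common direction.

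**Figure D2:**
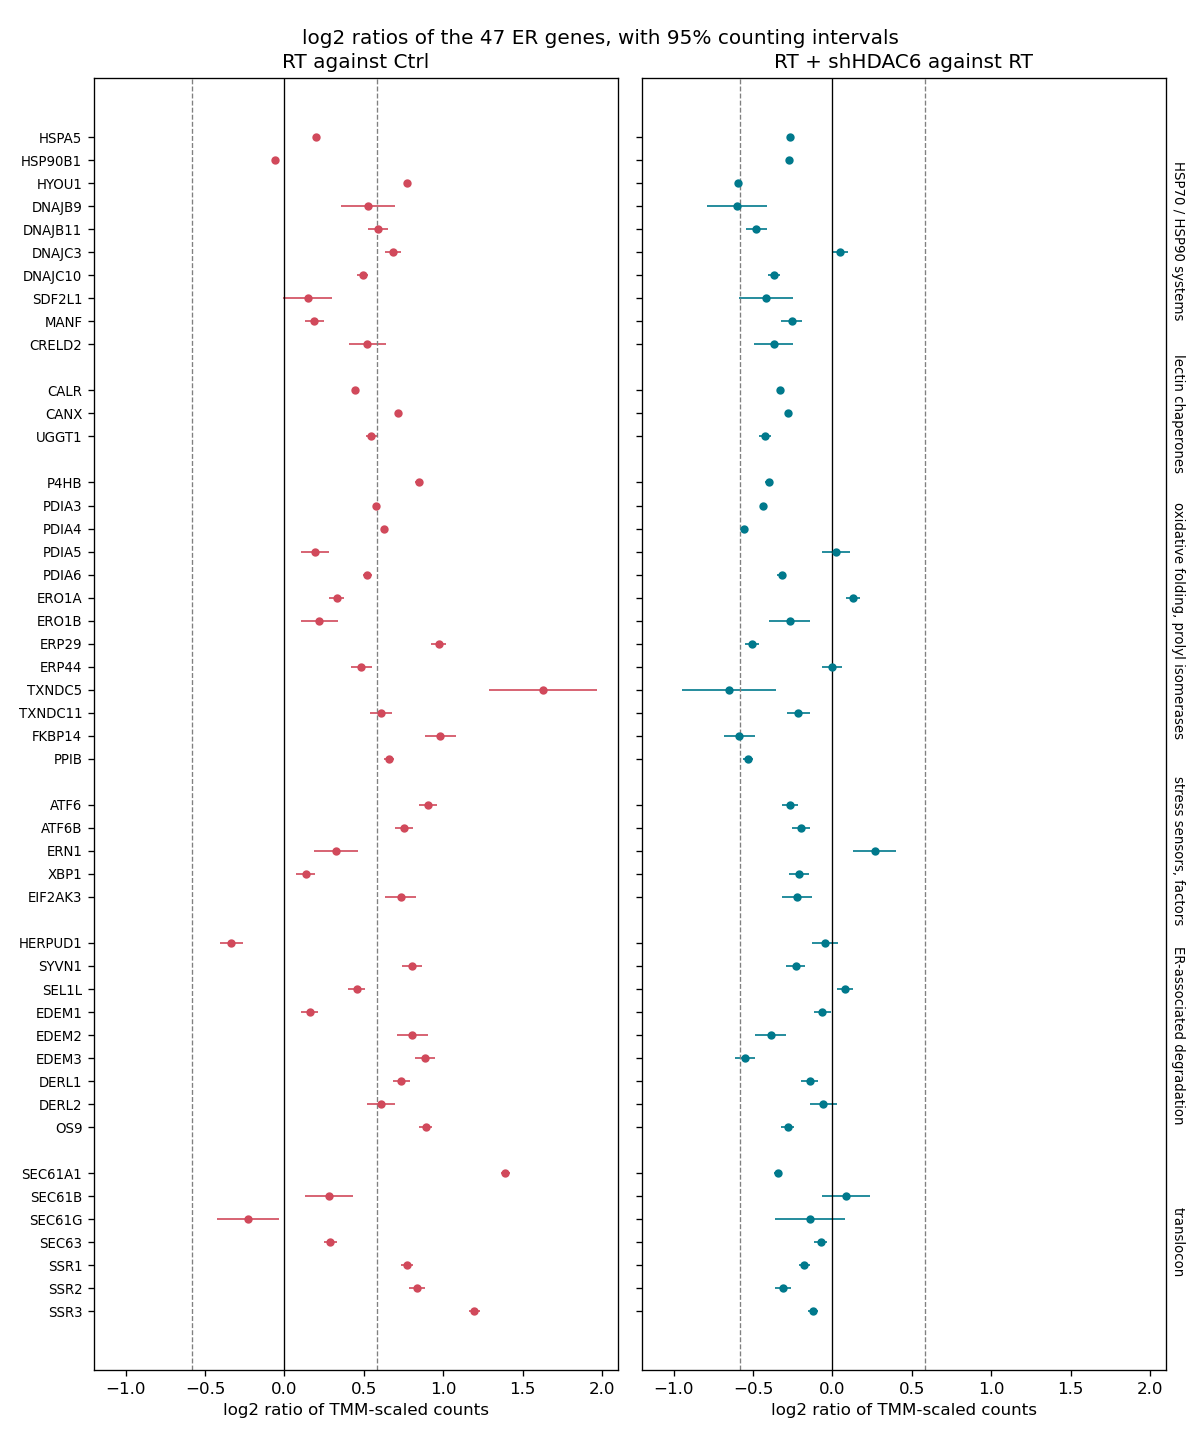
log2 ratios of TMM-scaled counts for the 47 ER genes in RT against Ctrl (left) and RT + shHDAC6 against RT (right), with 95% Clopper-Pearson intervals for counting error as horizontal lines and dashed lines at 1.5-fold. On the left 44 of 47 points lie above 0, led by TXNDC5, SEC61A1 and SSR3, and on the right 41 lie below 0.

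The second comparison, RT + shHDAC6 against RT, asked how the irradiated cells with the shRNA differed from irradiated control cells. The differences were small and mostly in 1 direction: 41 of the 47 genes had a log2 ratio below 0, and for 37 of them the whole counting interval lay below 0, compared with 50.9% and 24.4% of all genes and with 54.9% and 39.4% of the well-counted genes. With library totals, 36 of the 47 lay below 0, against 38.3% of the well-counted genes. The median log2 ratio was -0.27, against -0.0066 over all genes and -0.024 over the well-counted genes. By the 1.5-fold rule, 4 of the 47 were called lower and 0 higher, against 6.35% of all genes called lower and 4.71% called higher, so that the share of large changes among the ER genes was close to that background. Of the well-counted genes 3.22% were called lower and 0.912% higher, and of the 41 ER genes among them 2 and 0. The RT library enters this comparison and the first one, so the 2 sets of values are not independent. The epithelial markers differed here in both directions. Of the 10 that were well enough counted, 3 were called lower, KRT7, GATA3 and PPARG, and 0 higher, while 6 had their whole counting interval above 0 and the median log2 ratio was 0.14. Their summed level was 405 CPM in Ctrl, 484 in RT and 380.1 with the shRNA, of which KRT7 alone made up 77.9, 114.9 and 17.1. Their part in the values of the ER genes was not tested.

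The genes called lower were TXNDC5, DNAJB9, HYOU1 and FKBP14, all of which lay close to the threshold. DNAJB9, a J protein that represses IRE1 and a well-known target of XBP1, had 546 counts in Ctrl, 581 in RT and 400 with the shRNA. Its log2 ratio for RT + shHDAC6 against RT was -0.60 (interval from -0.79 to -0.41), and against Ctrl it could not be told from 0 at this depth (-0.076, interval from -0.27 to 0.11). HYOU1 had a log2 ratio of -0.60 (interval from -0.62 to -0.58), FKBP14, with 2126 and 1478 counts, of -0.59 (interval from -0.68 to -0.49) and TXNDC5, with 242 and 161 counts, of -0.65 (interval from -0.95 to -0.36). With library totals none of the 4 was called, against 5.15% of all genes called lower. With upper quartile scaling only TXNDC5 was, against 5.88%. The shifts between scalings were too small to turn the direction of any of the 4.

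By role, the folding genes lay lowest and the degradation and translocon genes nearest to 0. The median log2 ratio in RT + shHDAC6 against RT was -0.37 for the HSP70 and HSP90 systems, -0.33 for the lectin chaperones and -0.40 for oxidative folding. It was -0.21 for the sensors, -0.14 for ER-associated degradation and -0.14 for the translocon, and the difference between roles was not tested. HSPA5 and HSP90B1 each had a log2 ratio of -0.27 (interval from -0.29 to -0.25 for both), CALR of -0.33 (interval from -0.34 to -0.31), CANX of -0.28 (interval from -0.29 to -0.27), PDIA4 of -0.56 and EDEM3 of -0.55. ATF6, EIF2AK3 and XBP1 had log2 ratios of -0.27, -0.22 and -0.21. The values above 0 belonged to ERN1 (0.27, interval from 0.13 to 0.40), ERO1A (0.13), SEC61B (0.08), SEL1L (0.08), DNAJC3 (0.05) and PDIA5 (0.02), and none of the 6 was called. ERN1 was therefore highest in RT + shHDAC6, and ATF6 and EIF2AK3 were highest in RT.

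**Figure D3:**
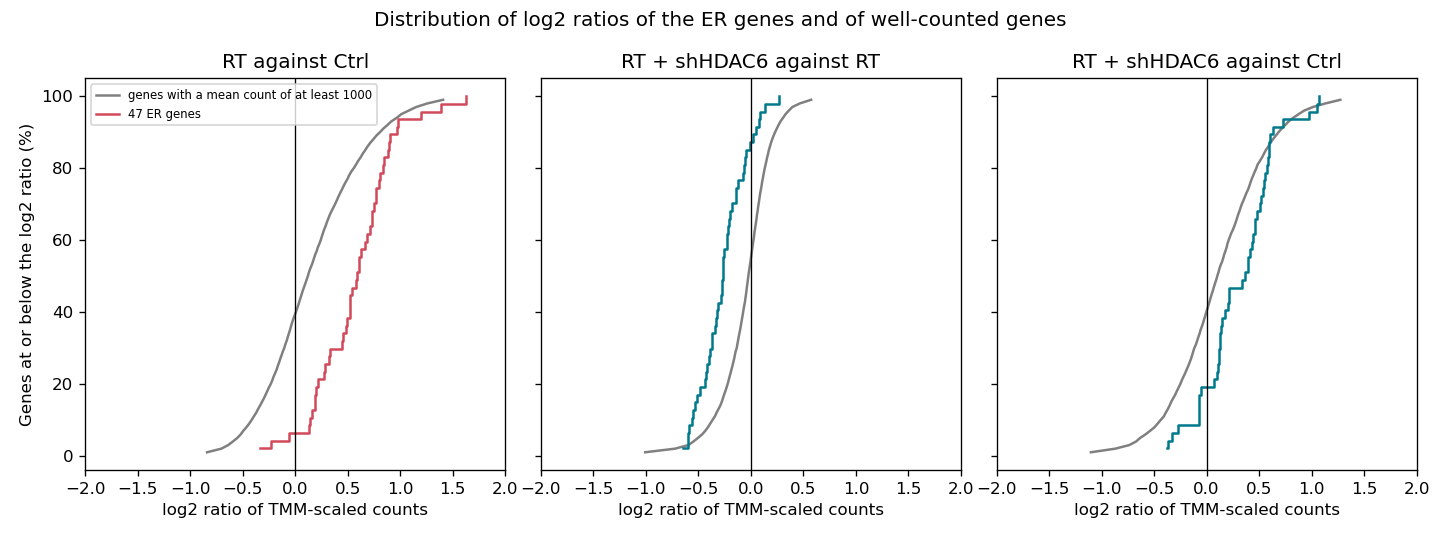
Cumulative distributions of the log2 ratio of TMM-scaled counts in each comparison for the 47 ER genes (coloured steps) and for the 7020 genes with a mean of at least 1000 counts (grey, from the 1st to the 99th percentile). The ER genes lie to the right of the well-counted genes in RT against Ctrl (medians 0.59 and 0.12) and to the left in RT + shHDAC6 against RT (medians -0.27 and -0.024).

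Against Ctrl, RT + shHDAC6 had 9 of the 47 genes called higher and 0 lower, compared with 11.8% and 13.5% of all genes tested and with 14.1% and 5.90% of the well-counted genes. Of the 41 well-counted ER genes, 7 were among these 9. The 9 genes were SEC61A1, SSR3 and SSR1 of the translocon, DERL1 and OS9 of degradation, the sensors ATF6 and ERN1, DNAJC3 and TXNDC5. SSR3 and SEC61A1 had the largest log2 ratios, 1.07 (interval from 1.04 to 1.11) and 1.05 (interval from 1.02 to 1.08). DNAJC3 was at 210 CPM against 127 in Ctrl, a log2 ratio of 0.73 (interval from 0.68 to 0.78), and ERN1 just passed the rule at 0.59 (interval from 0.46 to 0.72). The median log2 ratio over the 47 genes was 0.36. By role it was 0.018 for the HSP70 and HSP90 systems and 0.12 for the lectin chaperones, but 0.53 for degradation, 0.52 for the translocon and 0.56 for the sensors. HSPA5 and HSP90B1 had log2 ratios of -0.071 and -0.33 against Ctrl, and XBP1 of -0.076, none of them called. With library totals 4 of the 9 calls remained, against 7.97% of all genes called higher, and with upper quartile scaling 5, against 10.8%, since ERN1, DERL1, OS9 and SSR1 then missed the rule, as did ATF6 with library totals.

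Lists of other genes of the pathway gave the setting of these values. In RT against Ctrl, the shares of all genes called higher and lower were 13.0% and 12.7%. Among the well-counted genes they were 18.8% and 4.23%. Of 18 further genes of translocation and N-glycosylation, 14 were called higher and 0 lower in RT against Ctrl, with a median log2 ratio of 0.75. SRPRB, the membrane subunit of the signal recognition particle receptor, rose most of them, from 47.9 CPM in Ctrl to 151 in RT and 149 with the shRNA (log2 ratios 1.66 and 1.63 against Ctrl). Of 31 further genes of ER folding and degradation, 30 were well enough counted, and 17 of them were called higher in RT and 0 lower, with a median of 0.67. AUP1, a lipid droplet and ER protein that recruits a ubiquitin-conjugating enzyme, rose most there, from 86.4 to 209.9 CPM (log2 ratio 1.28). In RT + shHDAC6 against RT, the medians of these 2 lists were -0.20 and -0.22, and 0 and 2 genes were called lower. Of all genes 6.35% were called lower there, so that the 2 of 30 were close to that background. The 2 genes were FKBP9, a prolyl isomerase that went from 126 to 65.3 CPM (log2 ratio -0.95, interval from -1.03 to -0.88), and SIL1, the nucleotide exchange factor of HSPA5, which went from 86.6 to 49.5 (log2 ratio -0.81, interval from -0.89 to -0.72) and is named after its value was seen. In RT + shHDAC6 against Ctrl, 7 of the 18 and 8 of the 30 were called higher and 0 lower, against 11.8% and 13.5% of all genes. TMX1, a membrane-bound thioredoxin, was highest of the 30 at a log2 ratio of 1.21.

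The PERK-ATF4-CHOP arm was mixed and as a list did not share these directions. Of its 10 genes, 1 was called higher and 4 were called lower in RT against Ctrl, and the median log2 ratio was -0.33. Of all genes, 13.0% were called higher and 12.7% lower there, and of the well-counted genes 18.8% and 4.23%. The counting interval lay below 0 for 5 of the 10 genes, above 0 for 2 and covered 0 for 3. CHAC1, a glutathione-degrading enzyme induced by ATF4, fell from 472 counts in Ctrl to 79 in RT, a log2 ratio of -2.14 (interval from -2.51 to -1.80), and PPP1R15B, a phosphatase subunit that acts on eIF2α, rose by a log2 ratio of 0.65. The other falls, named after their values were seen, were those of ASNS, ATF3 and ATF4, with log2 ratios of -1.16, -0.94 and -0.68, and 49.3% of the exon bases of ASNS overlap a second gene on its strand. In RT + shHDAC6 against RT only ATF3 was called, at 0.84 (interval from 0.55 to 1.13), and the median was 0.12. Of all genes, 4.71% were called higher and 6.35% lower in that comparison. Against Ctrl, RT + shHDAC6 had 2 of the 10 called higher, led by PPP1R15A, another phosphatase subunit of that kind (log2 ratio 0.98), and 2 called lower, led by CHAC1 (log2 ratio -1.60). These counts stand beside 11.8% and 13.5% of all genes. DDIT3 (CHOP) had 155, 100 and 97 counts, and its log2 ratio of -0.20 in RT could not be told from 0 at this depth (interval from -0.57 to 0.17). The cytosolic chaperones had a median of 0.12 in RT against Ctrl, where 2 of 23 were called higher (13.0% of all genes) and 0 lower (12.7%). Their median was -0.051 in RT + shHDAC6 against RT, where none was called in either direction. The 2 called were HSPA1B (log2 ratio 0.95) and HSPA1A (log2 ratio 0.61, named after its value was seen), which are near-identical copies among which reads may have been split. In RT + shHDAC6 against Ctrl, the small heat shock protein HSPB1 was called lower (log2 ratio -0.61) and no gene of that list higher.

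**Figure D4:**
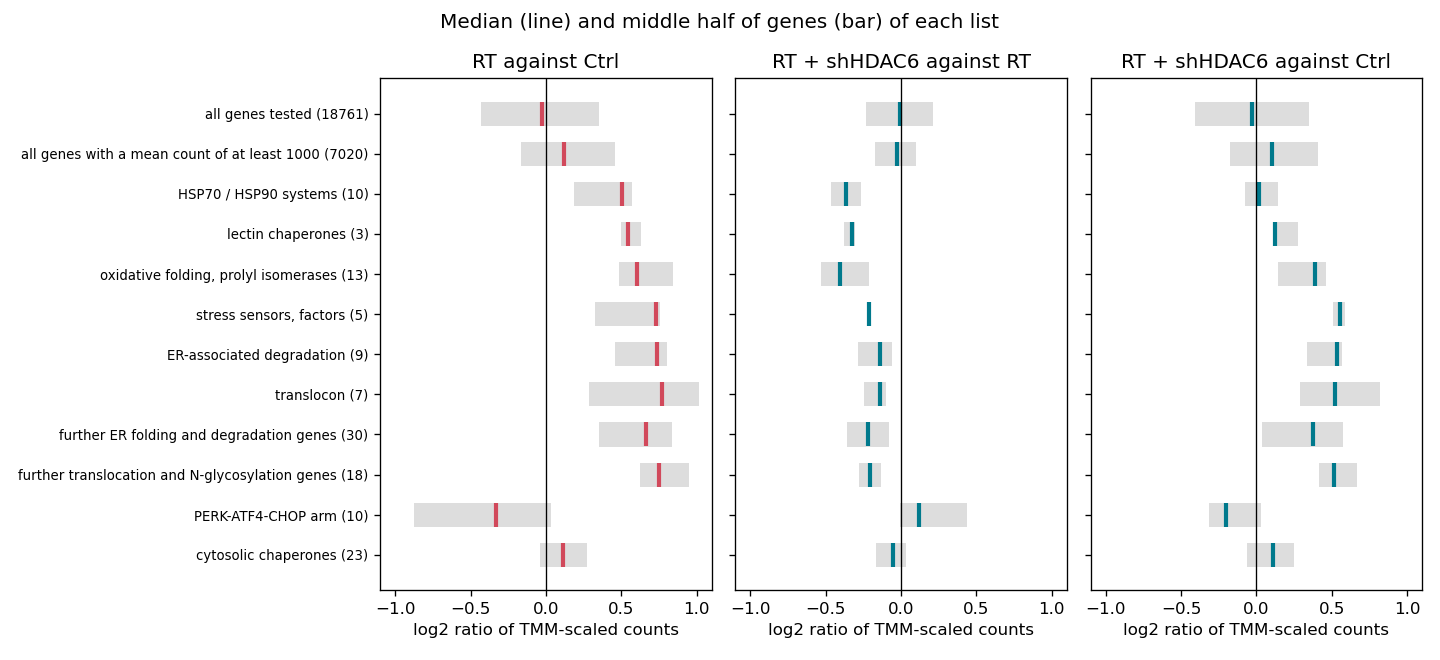
Median log2 ratio of TMM-scaled counts (coloured line) and the interquartile range (grey bar) for all genes tested, for genes with a mean of at least 1000 counts, for each role of the 47 ER genes and for 4 related lists, in each comparison; the number of genes tested is in brackets. The ER lists lie between 0.51 and 0.77 in RT against Ctrl, whereas the PERK-ATF4-CHOP arm lies at -0.33 and the cytosolic chaperones at 0.12.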

How the data were processed

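Polyadenylated RNA of 3 T24 libraries was sequenced by the authors. Per the methods and the labels, reads were trimmed with cutadapt, aligned to GRCh38 with STAR (2.6.1a in the submitters' processing notes, another release in the methods) and assigned to GENCODE release 28 genes with featureCounts. The library kit also differs between the labels and the methods, both stranded. The deposited values are whole-number counts without normalisation, and neither the strand setting nor the treatment of multi-mapping reads was given in the sources used here, so overlapping genes and near-identical copies could share counts.

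Symbols, GRCh38 positions and transcript lengths came from GENCODE release 44 by Ensembl identifier. TMM and upper quartile factors were computed with edgeR 4.0.16 and median-of-ratios factors with DESeq2 1.42.0 (R 4.3.3). Ratios and intervals were computed in Python 3.11.15 with scipy 1.17.1, with a count of 0 set to 0.5, among genes with a mean of at least 10 counts, and were tested on simulated data. No test across replicates was possible. The study called DEGs with NOISeq at a probability over 0.4, whose noise is simulated from each library, so a 1.5-fold rule was used and the NOISeq procedure, re-implemented, served as an alternative. All 47 genes are named, with the values of every library for those called in a comparison and for HSPA5, HSP90B1, CALR, CANX, XBP1, ATF6, ERN1 and EIF2AK3; other lists are given by counts, median and the called gene with the largest rise and fall. The members and lists were chosen with earlier results of these data known. A count of 3, the limit that a count of 0 allows, was 0.0718 to 0.0847 CPM.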

Additional observations from a re-analysis of the deposited data

How the results depend on the processing

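With 1 library per condition no library could be left out, and the variation between replicate libraries is not known. No paired analysis was possible because each condition has 1 library. With library totals, RT against Ctrl gave 12 higher ER genes (6.99% of all genes) and a median log2 ratio over the 47 of 0.37, RT + shHDAC6 against RT gave 0 lower (5.15%), and RT + shHDAC6 against Ctrl gave 4 higher (7.97%) with a median of 0.23. Upper quartile scaling gave 1 lower gene in RT + shHDAC6 against RT (5.88%) and 5 higher in RT + shHDAC6 against Ctrl (10.8%). A 2-fold rule left 3 genes higher in RT against Ctrl (4.25%), 0 lower in RT + shHDAC6 against RT (3.42%) and 2 higher in RT + shHDAC6 against Ctrl (4.13%). A looser rule, at a log2 ratio of 0.32, gave 35 higher and 1 lower in RT against Ctrl (22.1% and 20.7%), 0 higher and 18 lower in RT + shHDAC6 against RT (8.73% and 12.1%), and 25 higher and 3 lower in RT + shHDAC6 against Ctrl (21.9% and 21.0%). The NOISeq procedure at a probability over 0.4 called 43 higher and 2 lower in RT (20.1% and 21.2% of all genes with a count), 2 higher and 35 lower in RT + shHDAC6 against RT (14.3% and 16.8%), and 36 higher and 4 lower in RT + shHDAC6 against Ctrl (19.9% and 21.7%). Its probability also rises with the absolute difference in level, so well-counted genes are called at smaller ratios. The share of well-counted genes that it calls was not computed. All 47 genes had a mean above 100 counts, so dropping the count minimum, or setting it at 100, could not change the number called. A minimum of 1000 moved no median by 0.1 or more. The 3 other scalings moved log2 ratios by less than a call requires, so none of them could turn the direction of a called ER gene. No member had a count of 0, so the alternative for zeros was not run.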
